A study of Homo sapiens with 6 samples.

Results

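The 10 genes described here, BCL2, BCL2L1, MCL1, BAX, BAK1, BID, BIK, BBC3, PMAIP1 and BCL2L11, belong to the BCL2 family. They were taken by name from the 60649 gene rows of an RNA-seq count table, and 10 of 10 were found in it. The cells were OVCAR5, an established human ovarian cancer line labelled as epithelial. In 3 libraries the cells carried a lentiviral METTL3 overexpression construct and in 3 libraries they were vector control cells, made in parallel with the empty lentivirus. Both lines were stable lines kept under puromycin until the construct was established. No cisplatin treatment is named for these libraries. A part of the labels calls the control parental, whereas the protocol and the paper give it the empty vector. No source used here says that the 3 libraries of a group came from separate cultures, so the p-values measure the spread between these libraries, which may be technical, and each arm may be a single selected line. METTL3 is the catalytic subunit of the complex that writes N6-methyladenosine (m6A) on mRNA, and the comparison asks which transcripts differ when it is overexpressed in a line studied for its response to platinum.

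Proteins of the BCL2 family decide whether the outer mitochondrial membrane is opened during apoptosis. The pro-survival members BCL2, BCL-xL (the long product of BCL2L1) and MCL1 bind and hold back the effectors BAX and BAK, which form pores that release cytochrome c. BH3-only proteins sense damage or loss of signalling and either neutralise the pro-survival members or activate the effectors. Among them BID links death receptors to mitochondria after cleavage by caspase-8, PUMA (BBC3) and NOXA (PMAIP1) are induced after DNA damage, BIM (BCL2L11) binds all the pro-survival members, and BIK acts from the endoplasmic reticulum. Platinum drugs damage DNA, and their killing of ovarian cancer cells runs largely through this pathway.

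The total counts ranged from 96633925 to 125463386 per library, and 22038 genes passed the filter on low counts, the 10 members among them. METTL3 itself, the check of the labels, gave 152, 165 and 175 CPM (counts scaled by library size and TMM factor) with the METTL3 construct, in the order of replicates 1, 2 and 3, against 80.6, 68.6 and 71.6 CPM with the empty vector. The groups did not overlap for METTL3, and its log2 fold change was 1.16 (SE 0.117, adjusted p = 0.072, edgeR quasi-likelihood test). The 6 epithelial markers were each above 1 CPM in every library. Of 3 serous ovarian markers, WT1 stayed at or under 0.204 CPM, PAX8 was at 6.38 to 11.6 CPM and MUC16 at 1.98 to 49.4 CPM, highest in METTL3-overexpressing library 1. Of the fibroblast and immune markers, DCN, LUM, PTPRC and CD3E each stayed at or under 0.169 CPM and COL3A1 at or under 0.29 CPM, whereas COL1A1 reached 18.1 and CD14 11.4 CPM. The endothelial marker PECAM1 reached 21.4 CPM, with CDH5 and VWF at or under 0.443 CPM. In bulk RNA, fewer cells that express a gene and less RNA per cell cannot be told apart.

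The members covered a wide range of levels. Per kilobase of exon, which allows genes to be compared, BCL2L1 was highest at 48.3 ± 4.76 CPM per kb (mean ± SD, n = 6 libraries) and MCL1 followed at 46.2 ± 6.62 CPM per kb. These were followed by the effector BAX at 28.5 ± 2.08, by BIK at 24.2 ± 5.48 and by PMAIP1 at 21.3 ± 2.57 CPM per kb. BAK1 stood at 16.7 ± 1.34 and BID at 16.3 ± 4.39 CPM per kb. The lowest were BCL2L11 at 5.22 ± 0.849, BBC3 at 2.35 ± 0.279 and BCL2 at 0.0975 ± 0.0294 CPM per kb. Neighbours in this order overlapped over the 6 libraries from BCL2L1 to MCL1, from BAX to BIK, from BIK to PMAIP1, from PMAIP1 to BAK1 and from BAK1 to BID, so their order is not resolved. BCL2L11, BBC3 and BCL2 were each separated from their neighbours, as was MCL1 from BAX. With the length of the longest transcript in place of all exons, MCL1 stood at 63.1 and BCL2L1 at 62.2 CPM per kb, and BID, at 28.9 CPM per kb, moved ahead of BIK and PMAIP1. BAX then stood at 54.2 CPM per kb, with a range of 46.8 to 57.2 that overlapped MCL1 and BCL2L1.

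**Figure D1:**
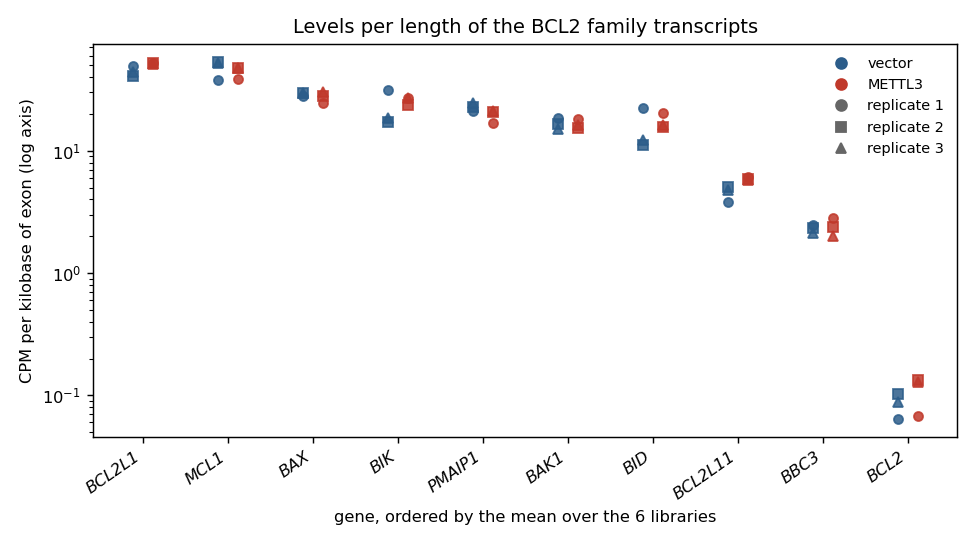
CPM per kilobase of exon (log axis) of the 10 genes in each of the 6 libraries, with colour for the group and marker shape for the replicate number. BCL2L1 and MCL1 lie at the top between 37.7 and 53.4 CPM per kb, and BCL2 lies between 0.0644 and 0.134 CPM per kb.

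BCL2 contributed at most 0.134% of the summed level per kb of the 3 pro-survival genes in any library, so nearly all of that pool was BCL2L1 and MCL1 transcript. The ratio of BCL2L1 to MCL1 per kb was 1.36, 1.08 and 1.09 in METTL3-overexpressing libraries 1, 2 and 3 and 1.30, 0.765 and 0.849 in the vector controls. It was the higher in the METTL3-overexpressing library of each replicate number, although the groups overlapped because vector control library 1 lay among the METTL3-overexpressing libraries. The effectors BAX and BAK1 together came to 0.468, 0.439 and 0.466 of the pro-survival level in the METTL3-overexpressing libraries. In the vector controls they came to 0.536, 0.493 and 0.468, so the groups met at 0.468 to the digits shown. With the longest transcript as length this ratio was 0.539, 0.524 and 0.558 with METTL3 and 0.627, 0.584 and 0.563 with the vector. The groups then did not overlap, so their separation depends on the length used. The 5 BH3-only genes came to 0.805, 0.687 and 0.727 of the pro-survival level with METTL3. With the vector they came to 0.936, 0.621 and 0.652, and here the groups overlapped. These ratios are of transcripts, and gene counts cannot separate the long and short products of BCL2L1 or the isoforms of MCL1 and BCL2L11.

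m6A is written mostly within DRACH sequences, and GGACT in DNA letters is the form most often modified. No methylation was measured in these libraries, so the motif is given as a property of the transcripts. The MANE Select transcripts (the reference transcript of each gene) of 14684 tested genes held a median of 0.942 GGACT per kb, and 91.4% held at least 1. Of the members, BBC3 had 3.79 per kb, above 99.5% of those transcripts, and BAX had 2.52. BCL2L1 followed at 2.33 per kb and BAK1 and BID at 2.3 each. MCL1 had 1.77, BCL2L11 1.18, BIK and PMAIP1 1.05 each and BCL2 0.436 per kb. BCL2, the least expressed member, was thus the only member under the median.

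For 6 members whose levels are compared closely below, the 25 bases around a GGACT, with the motif in capitals, show what such a site looks like. It is the GGACT nearest to the stop codon whose 25 bases cross no exon junction, so a motif at a junction could lie nearer. The windows are read from GENCODE 44 transcripts, 5′ to 3′, with positions on GRCh38.
BCL2L1, 3′ UTR, chr20:31665374-31665398, minus strand: gcaaggaccaGGACTccctcctcac
MCL1, 3′ UTR, chr1:150577292-150577316, minus strand: ttatgcagttGGACTccaagctgta
BID, 3′ UTR, chr22:17735066-17735090, minus strand: ctcaaaatagGGACTatctatctta
BIK, coding exon, chr22:43124141-43124165, plus strand: accctatggaGGACTtcgattcttt
PMAIP1, 3′ UTR, chr18:59902767-59902791, plus strand: ttgcatgaggGGACTccttcaaaag
BCL2L11, 3′ UTR, chr2:111164375-111164399, plus strand: gagctggatgGGACTacctttctgt
In MCL1 the motif lies 71 bases after the stop codon, in PMAIP1 26 bases and in BCL2L11 156 bases after it, whereas in BCL2L1 and BID the distance was 563 and 502 bases. The single GGACT of BIK lies 352 bases before its stop codon.

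Over all 6 libraries 0 of the 10 members passed an adjusted p of 0.05, as did 0% of the 22038 genes tested by edgeR's quasi-likelihood test. At an unadjusted p under 0.05 there was 1 member, BCL2L11, against 8.30% of all genes tested. The log2 fold change, METTL3 against vector, was above 0 for 6 members and had a median of 0.128, beside −0.018 for all genes tested. BCL2L11, BCL2L1 and PMAIP1 were the 3 members whose groups did not overlap. Of these 2 were higher with METTL3, against 8.47% of all genes tested, and 1 was lower, against 8.93%. Values in CPM below are given in the order of replicates 1, 2 and 3.

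Among the pro-survival genes, BCL2L1 was at 221, 217 and 216 CPM with METTL3 and at 206, 172 and 185 CPM with the vector. Each METTL3-overexpressing library exceeded each vector control (two-sided exact permutation p = 0.1), and the SD of the METTL3-overexpressing libraries was 2.3 CPM. This permutation p is given only for members whose groups did not overlap. With 3 libraries against 3 such a gene always gives 0.1, the smallest value possible, so the p only restates the lack of overlap. The log2 fold change of BCL2L1 was 0.22 (SE 0.114, adjusted p = 0.635, edgeR). MCL1, whose short-lived protein is a known dependence of many tumour cells, was at 240, 298 and 295 CPM with METTL3 and at 235, 333 and 323 CPM with the vector. Its lowest values were both in the replicate 1 libraries, and its log2 fold change was −0.10 (SE 0.165, adjusted p = 0.873, edgeR). BCL2, the target of venetoclax, was at 0.86, 1.69 and 1.62 CPM with METTL3 and at 0.812, 1.3 and 1.1 CPM with the vector, from 77 to 209 counts. The groups overlapped through replicate 1 of the METTL3-overexpressing cells, and the log2 fold change of BCL2 was 0.37 (SE 0.313, adjusted p = 0.739, edgeR).

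Neither effector differed between groups beyond its standard error. BAX, which is cytosolic until activated, was at 63.6, 73.2 and 77.7 CPM with METTL3 and at 72.9, 77.2 and 77.4 CPM with the vector. Apart from METTL3-overexpressing library 1, the lowest, BAX lay between 72.9 and 77.7 CPM, and its log2 fold change was −0.08 (SE 0.114, adjusted p = 0.838, edgeR). BAK1, which encodes the membrane-bound effector BAK, was at 40.1, 34.3 and 35.7 CPM with METTL3 and at 40.6, 36.9 and 33.5 CPM with the vector. Its log2 fold change was −0.01 (SE 0.123, adjusted p = 0.985, edgeR), and the sign of so small a value turned under other settings. BAK1 also has 2 pseudogene copies by name, BAK1P1 and BAK1P2, and reads shared with them could be placed in either.

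Of the BH3-only genes, BCL2L11 stood furthest from 0 relative to its error. BCL2L11 was at 41, 39.4 and 38.6 CPM with METTL3 and at 25.6, 34.4 and 32.3 CPM with the vector. The METTL3-overexpressing libraries were all higher (two-sided exact permutation p = 0.1), and vector control library 1 was the lowest. The log2 fold change was 0.37 (SE 0.134, unadjusted p = 0.0249, adjusted p = 0.562, edgeR), and by p it ranked 976 of 22038 genes. PMAIP1 was at 37.2, 45.7 and 46.1 CPM with METTL3 and at 46.3, 49.8 and 54.3 CPM with the vector. Here each METTL3-overexpressing library was lower (two-sided exact permutation p = 0.1); METTL3-overexpressing library 3 lay just under vector control library 1. The log2 fold change of PMAIP1 was −0.22 (SE 0.127, adjusted p = 0.648, edgeR).

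BID and BIK shared a pattern, with their highest values in vector control library 1 and their lowest in vector controls 2 and 3. It was not particular to them, since BIRC3 and FAS, described below, had the same arrangement. BID was at 90.8, 69.4 and 71.9 CPM with METTL3 and at 97.9, 49.3 and 53.9 CPM with the vector. BIK was at 25.7, 22.6 and 25.6 CPM with METTL3 and at 30.1, 16.4 and 17.8 CPM with the vector. Vector controls 2 and 3 were thus the lowest for both genes and vector control 1 the highest, and the spread within the vector controls (SD 26.9 CPM for BID, 7.55 CPM for BIK) exceeded the difference of the means. The log2 fold change was 0.21 for BID (SE 0.255, adjusted p = 0.822, edgeR) and 0.20 for BIK (SE 0.225, adjusted p = 0.804, edgeR). These values rest on single libraries, since with 1 library left out BID ranged from 0.06 (without vector control 2) to 0.59 (without vector control 1, adjusted p = 0.0866, edgeR) and BIK from 0.07 to 0.53 (the same libraries, adjusted p = 0.0584 at the highest, edgeR). BBC3 was at 8.93, 7.61 and 6.36 CPM with METTL3 and at 7.8, 7.45 and 6.79 CPM with the vector, with a log2 fold change of 0.06 (SE 0.169, adjusted p = 0.938, edgeR). BBC3 in METTL3-overexpressing cells spanned more than the vector controls on both sides.

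**Figure D2:**
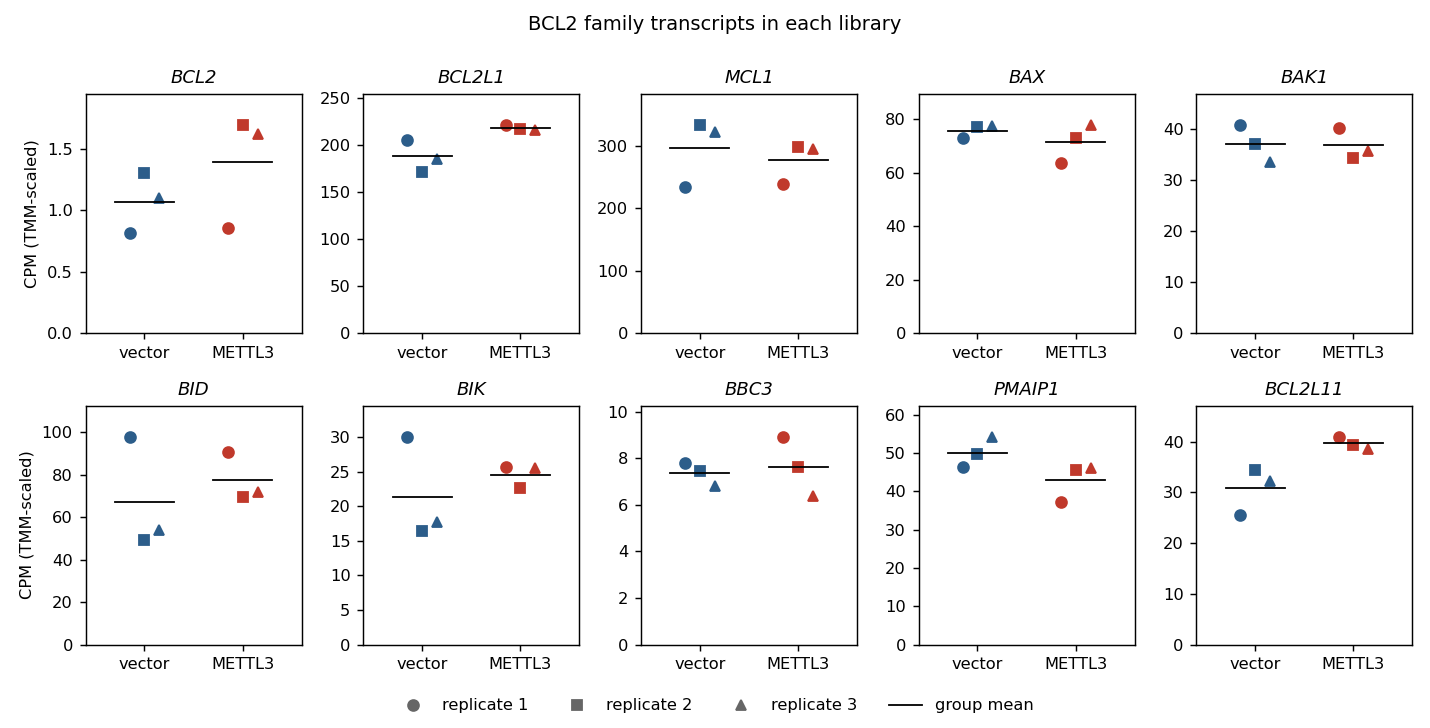
CPM of each gene in the 3 vector control and 3 METTL3-overexpressing libraries (points, marker shape for the replicate number) with the group mean (line). BCL2L1 and BCL2L11 are higher and PMAIP1 lower in each METTL3-overexpressing library, and both replicate 1 libraries stand apart for BID and MCL1.

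The count table does not resolve overlapping genes if strand was ignored in counting, and the strand setting is not given in the sources used here. Of the exonic bases of BCL2L1, 41.3% lie opposite the antisense gene ABALON, which held at most 2 counts in any library. For BCL2L11, 10.8% lie opposite MIR4435-2HG, which was at 25.7, 44.5 and 42.9 CPM with METTL3 and at 35.1, 41.9 and 41 CPM with the vector. The part of reads from it in the BCL2L11 values was not tested. For MCL1, 5.27% of exonic bases are shared with ADAMTSL4-AS1 on the same strand.

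Deviations from the group mean correlated at 0.36, 0.25 and 0.27 between libraries of replicate numbers 1, 2 and 3. METTL3-overexpressing library 2 correlated more with vector control 3 (0.38), so numbers 2 and 3 are not resolved as pairs. With this limit, METTL3 and vector were also compared within each number. The log2 ratio of METTL3 to vector in numbers 1, 2 and 3 was 0.10, 0.34 and 0.22 for BCL2L1, 0.08, 0.37 and 0.55 for BCL2 and 0.68, 0.20 and 0.25 for BCL2L11. These 3 members were above 0 in every number, as were 19.6% of all genes tested. PMAIP1 was below 0 in every number, at −0.31, −0.13 and −0.24, as were 20.0% of all genes tested. The other 6 members were of mixed sign. BID was at −0.11, 0.50 and 0.42, and BIK at −0.23, 0.46 and 0.52, so that for both genes number 1 went one way and numbers 2 and 3 the other. MCL1 showed the opposite arrangement at 0.03, −0.16 and −0.13.

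**Figure D3:**
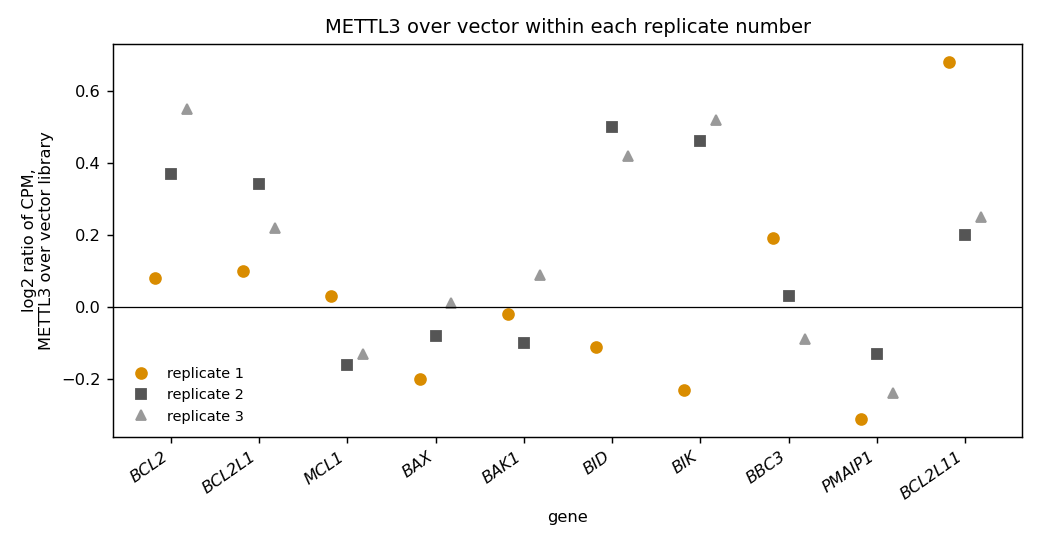
Log2 ratio of CPM, METTL3-overexpressing over vector control library, within each replicate number (marker shape and colour) for the 10 genes. BID and BIK lie below 0 in number 1 and above 0.4 in numbers 2 and 3, and BCL2L11 is highest in number 1 at 0.68.

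A fit with the interaction of group and replicate number gave the size of this difference. Number 1 holds 1 library of each group, which the fit assumes to vary like replicates 2 and 3, so the test compares these libraries and the sign pattern above is not seen again in other ones. The METTL3 effect in replicate 1 was lower than that in replicates 2 and 3 by a log2 difference of −0.56 for BID (SE 0.102, adjusted p = 0.00109, edgeR) and −0.73 for BIK (SE 0.134, adjusted p = 0.00124, edgeR). For BCL2L11 it was higher, by 0.46 (SE 0.106, adjusted p = 0.00552, edgeR). With 3 of 10 members called the share was that of the background, since 30.2% of all genes tested were called. For METTL3 itself the difference of effects was −0.36 (SE 0.094, adjusted p = 0.0103, edgeR).

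Number 1 was also set against the mean of numbers 2 and 3 over both groups. None of the members (0 of 10) passed at an adjusted p of 0.05 by edgeR, beside 2.18% of all genes tested, and 4 members had an unadjusted p under 0.05, beside 21.7% of all genes tested. BCL2 was lower in number 1, by a log2 difference of −0.75 (SE 0.22, adjusted p = 0.126, edgeR), and MCL1 by −0.39 (SE 0.122, adjusted p = 0.145, edgeR). BID stood higher in number 1 by 0.65 (SE 0.151, adjusted p = 0.0873, edgeR) and BIK by 0.47 (SE 0.18, adjusted p = 0.203, edgeR). DESeq2 called 1 member here, BID, beside 8.74% of all genes tested. The summed epithelial markers, like BID and BIK, were highest in vector control library 1 and lowest in vector controls 2 and 3. They came to 8450, 7700 and 7510 CPM with METTL3 and 9490, 6110 and 6020 CPM with the vector. Within that list CDH1 went another way, at 439, 358 and 346 CPM with METTL3 and 201, 184 and 189 CPM with the vector. The sum of 10 proliferation genes was 2380, 3240 and 3160 CPM with METTL3 and 3430, 2990 and 3040 CPM with the vector. Not every gene followed this sum. PLK1 and MCM2 were lowest in vector control library 1, at 143 and 128 CPM, and MKI67 was lowest in vector control library 3, at 331 CPM. The part of the epithelial or the proliferation genes in these results was not tested.

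With replicates 2 and 3 of each group alone, 4 of the 10 members passed an adjusted p of 0.05 with edgeR and all 4 were higher with METTL3, where 15.2% of all genes tested passed, 6.66% higher and 8.59% lower. BIK rose by a log2 fold change of 0.49 (SE 0.0795, adjusted p = 0.000639, edgeR) and BID by 0.45 (SE 0.0608, adjusted p = 0.000135, edgeR). BCL2L1 rose by 0.28 (SE 0.0551, adjusted p = 0.00301, edgeR) and BCL2L11 by 0.22 (SE 0.0608, adjusted p = 0.0221, edgeR). The genes that rose thus included the pro-survival BCL2L1 as well as 3 BH3-only genes. PMAIP1 was at −0.18 (SE 0.0608, adjusted p = 0.0577, edgeR) and MCL1 at −0.15 (SE 0.0501, adjusted p = 0.0653, edgeR), both just outside the threshold, and BCL2 at 0.46 (SE 0.192, adjusted p = 0.138, edgeR). BAX, BAK1 and BBC3 lay between −0.04 and −0.01. These calls rest on a pair of libraries per group, chosen with the standing of replicate 1 already known. With replicate 1 the same 4 genes had adjusted p-values from 0.562 to 0.822 in edgeR's test.

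**Figure D4:**
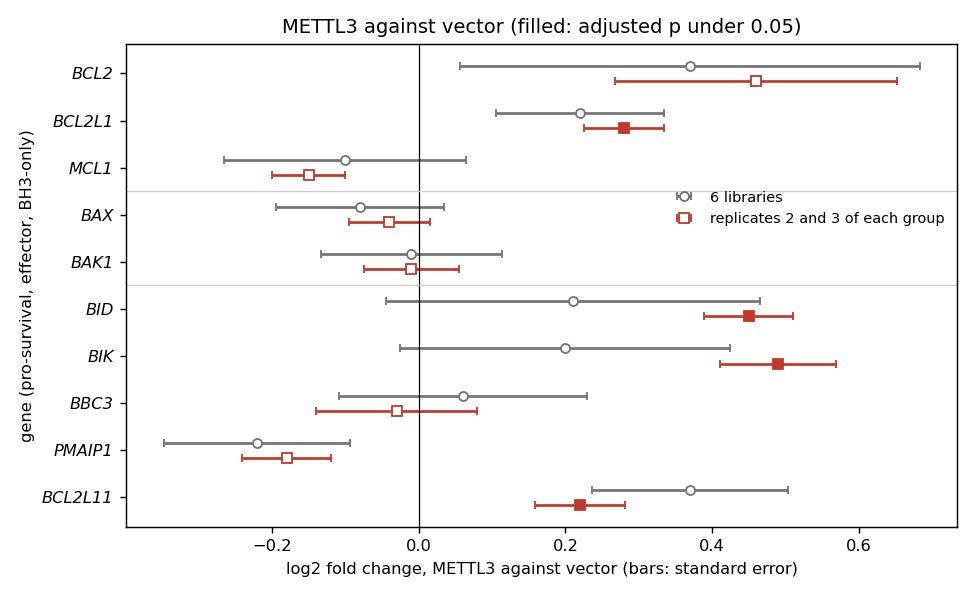
Log2 fold change, METTL3 against vector, of each gene (points, bars for the standard error) from all 6 libraries and from replicates 2 and 3 of each group, with filled points for an adjusted p under 0.05. BCL2L1, BID, BIK and BCL2L11 are filled with replicates 2 and 3 alone and none is filled with 6 libraries.

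For 3 of those 4 genes a promoter, from 250 bases before to 50 bases after the start, is in RefSeq (GRCh38.p14). It is shown because these genes moved the same way in those libraries. BID had 5 such entries and BCL2L1 had 2, of which the entry nearest to the start of the MANE Select transcript is shown. Capitals mark the GC box, GGGCGG on either strand, the sequence bound by SP1.
BCL2L1, chr20:31722819-31723118, minus strand: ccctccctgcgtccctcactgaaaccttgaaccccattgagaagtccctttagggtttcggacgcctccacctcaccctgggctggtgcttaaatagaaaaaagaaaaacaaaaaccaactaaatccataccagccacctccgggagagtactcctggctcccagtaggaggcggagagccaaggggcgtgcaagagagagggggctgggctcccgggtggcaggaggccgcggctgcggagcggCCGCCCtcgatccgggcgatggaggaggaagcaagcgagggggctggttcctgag
BID, chr22:17774420-17774719, minus strand: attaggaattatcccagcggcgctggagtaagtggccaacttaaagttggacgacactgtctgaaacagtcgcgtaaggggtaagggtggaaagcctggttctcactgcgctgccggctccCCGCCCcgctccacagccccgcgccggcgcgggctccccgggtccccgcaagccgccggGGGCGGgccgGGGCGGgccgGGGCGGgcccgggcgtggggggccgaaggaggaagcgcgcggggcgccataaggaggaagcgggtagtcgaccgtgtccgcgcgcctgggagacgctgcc
BCL2L11, chr2:111120664-111120963, plus strand: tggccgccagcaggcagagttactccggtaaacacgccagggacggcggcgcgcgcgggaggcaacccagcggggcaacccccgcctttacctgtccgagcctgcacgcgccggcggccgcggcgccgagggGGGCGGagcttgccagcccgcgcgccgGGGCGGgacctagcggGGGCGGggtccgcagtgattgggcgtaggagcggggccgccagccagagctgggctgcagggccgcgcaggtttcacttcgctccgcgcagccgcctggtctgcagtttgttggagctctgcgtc
The BID promoter held 4 GC boxes and 37 CpG, that of BCL2L11 held 3 and 39, and that of BCL2L1 held 1 and 16. Of the members not called with replicates 2 and 3, PMAIP1 held 4 GC boxes and 42 CpG, BAX 2 and 38 and BAK1 2 and 7. BCL2 held 0 and 31. The entry for BBC3 held 0 and 5, but its start lies 1468 bases from that of the MANE Select transcript, so it does not describe the promoter of that transcript. With BBC3 left aside, these counts still did not set the called genes apart. Among 35116 promoters of the same length 45% held a GC box, and the median number of CpG was 14. The search covered 8 motifs on both strands. BCL2L11 had 1 match to GTAAACA, the core bound by FOXO factors, which 3.42% of all promoters held, and 1 to CCAAT, held by 34.6%. The windows shown held no match to the TATA box (TATAAA, held by 11.5% of all promoters), the CRE (TGACGTCA, 1.85%) or the AP-1 motif (TGANTCA, 7.71%). They also held none to the E-box (CACGTG, 7.26%) or the NF-kB motif (0.558%). A match is a description of the letters and says nothing of binding. In all, 8 of the 10 members had a promoter entry, and MCL1 and BIK did not.

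The rest of the pathway was counted as 6 lists of 65 genes, of which 64 were tested (FASLG was not). Over 6 libraries 0 of 64 were called by edgeR, with 5 at an unadjusted p under 0.05, where all genes tested gave 8.30%. Their median log2 fold change was −0.028, beside −0.018 for all genes tested. With replicates 2 and 3 alone 12 of 64 passed (18.8%, where all genes tested gave 15.2%), 5 higher and 7 lower with METTL3. The genes named for each list are the 3 with the smallest p over 6 libraries and, in addition, those that passed with replicates 2 and 3.

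Among 13 other BCL2 family genes, BAD, a BH3-only gene whose protein is held inactive by survival kinases, was at 11.3, 10.2 and 10.9 CPM with METTL3 and at 14.2, 13.1 and 13.1 CPM with the vector. The groups did not overlap, and its log2 fold change was −0.32 (SE 0.126, unadjusted p = 0.0344, adjusted p = 0.569, edgeR). With replicates 2 and 3 alone BAD fell by 0.31 on the log2 scale (adjusted p = 0.0171, edgeR), and BCL2L13 rose by 0.19 (adjusted p = 0.0283, edgeR). BMF, whose protein senses loss of attachment, was at 11.5, 8.1 and 7.79 CPM with METTL3 and at 5.96, 7.77 and 6.46 CPM with the vector, with a log2 fold change of 0.44 (adjusted p = 0.609, edgeR). BCL2L12 was at −0.22 (adjusted p = 0.652, edgeR).

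In the list of 16 genes for mitochondrial release, the apoptosome and executioner caspases, 0 passed in either fit by edgeR, with 0 and 5 at an unadjusted p under 0.05 over 6 and over 4 libraries, where all genes tested gave 8.30% and 27.1%. The smallest p-values there were those of the outer membrane channels VDAC3 at a log2 fold change of −0.36 and VDAC2 at −0.17, and of the protease HTRA2 at −0.20. The effect in replicate 1 minus that in replicates 2 and 3 had a median of −0.358 over these 16 genes, beside 0.001 for all genes tested. It ranged from −0.88 for VDAC3 to 0.36 for DIABLO, and APAF1, at 0.13, also lay above 0. In the other lists the median of this difference ranged from −0.433 for the inhibitors of apoptosis to 0.55 for the transcription factors. Of the 7 inhibitors of apoptosis, BIRC7 was barely detected, at 0.0709, 0.113 and 0.109 CPM with METTL3 and 0.327, 0.221 and 0.253 CPM with the vector (log2 fold change −1.44, adjusted p = 0.438, edgeR). BIRC6 stood at 0.34 and NAIP at −0.52. With replicates 2 and 3 alone BIRC3, the cIAP2 gene, rose by 0.60 (adjusted p = 2.13e-06, edgeR), but vector control library 1 was the highest of all at 688 CPM, as it was for BID and BIK.

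Of the death receptor genes that act upstream of BID, 5 of 14 passed with replicates 2 and 3 alone, 1 higher and 4 lower with METTL3, where 15.2% of all genes tested passed, 6.66% higher and 8.59% lower. FAS rose by a log2 fold change of 0.52 (adjusted p = 0.00043, edgeR). The TRAIL receptor gene TNFRSF10B fell by 0.37 (adjusted p = 0.000183, edgeR), the TRAIL gene TNFSF10 fell by 0.29 (adjusted p = 0.00353, edgeR), the decoy receptor gene TNFRSF10D fell by 0.20 (adjusted p = 0.0491, edgeR) and TNFRSF1A fell by 0.19 (adjusted p = 0.0199, edgeR). In number 1 FAS (14.3 CPM with METTL3, 18.4 with the vector), TNFRSF10B (104 and 90.7 CPM) and TNFRSF1A (150 and 138 CPM) went the other way. Over all 6 libraries TNFSF10 was at −0.37 (adjusted p = 0.61), TNFRSF10D at −0.17 (adjusted p = 0.65) and TNF at 0.33 (adjusted p = 0.734), by edgeR. TNFRSF10D did not overlap between groups, with 34.9, 33.5 and 34.6 CPM against 38.3, 37.6 and 40.3 CPM.

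Transcription factors known to induce BH3-only genes had 4 of 8 called with replicates 2 and 3 alone, 2 higher and 2 lower with METTL3, beside 15.2% of all genes tested. TP73 was at 9.4, 10.5 and 9.59 CPM with METTL3 and at 4.94, 7.51 and 6.56 CPM with the vector, with no overlap between groups. Over 6 libraries the log2 fold change was 0.63 for TP73 (adjusted p = 0.453, edgeR) and 0.72 for TP63 (adjusted p = 0.636, edgeR). With replicates 2 and 3 alone TP73 rose by 0.52 (adjusted p = 0.00255, edgeR). DDIT3, the CHOP gene, fell by 0.44 (adjusted p = 0.0174, edgeR) and JUN fell by 0.41 (adjusted p = 0.00026, edgeR), although JUN was lowest of all in vector control library 1 at 41.9 CPM. Of the 6 ubiquitin ligases and deubiquitinases of BCL2 proteins, HUWE1, a ligase for MCL1, was at 621, 454 and 330 CPM with METTL3 and at 325, 337 and 296 CPM with the vector (log2 fold change 0.55, adjusted p = 0.565, edgeR). USP9X, which removes ubiquitin from MCL1, stood at 0.24 and MARCHF5 at −0.08, and 0 of the 6 passed with replicates 2 and 3 by edgeR, with 1 at an unadjusted p under 0.05, beside 27.1% of all genes tested.

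BCL2 varied most among the members, by 2.08 times from its lowest to its highest library, followed by BID at 1.99. The genes whose pattern over the 6 libraries was most like that of BCL2, by root mean square difference of centred log2 CPM, were the unnamed gene ENSG00000272512 (0.0541), ARID3B (0.0676) and the pseudogene TUBBP2 (0.0681). ARID3B was at 5.72, 9.48 and 10.3 CPM with METTL3 and at 5.47, 8.07 and 7.27 CPM with the vector, lowest in both replicate 1 libraries like BCL2.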

How the data were processed

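Per the labels, the authors used fastp, HISAT2 with hg38, and featureCounts of Subread. The deposited values are raw counts of reads per gene, not normalized. The labels describe stranded TruSeq paired-end libraries, whereas the paper's methods describe single-end NEBNext libraries. Of the counts from 1 to 10, 69.9% to 73.2% were even, so counts divided by 2 and rounded were also tested.

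GENCODE 44 named 60507 of 60649 identifiers and left 142 unnamed. Genes kept by filterByExpr (edgeR 4.0.16, R 4.3.3) were scaled by TMM and tested by glmQLFit (robust) with glmQLFTest. Benjamini-Hochberg adjustment ran over all genes, with 0.05 as threshold. Each SE was obtained as the size of a log2 fold change divided by the square root of its F. CPM used the TMM factors, and lengths were unions of exons. Alternatives were DESeq2 1.42.0, other size factors and filters, the replicate block, and each library left out. The scripts were tested on simulated data. The members, the lists and the use of replicates 2 and 3 were chosen with earlier results of these data known. In each list the genes called were to be named or, with none, the 3 with the smallest p. A gene of these lists is counted but its values are not reported here.

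Both groups carry the replicate numbers 1, 2 and 3. Deviations from the group mean correlated between libraries of equal number at 0.36, 0.25 and 0.27. A value over 0.1 in every pair was required. The numbers were therefore used as pairs in the ratios within each number, in the replicate block and in the contrasts between numbers. The main METTL3 comparison compared the groups alone, without pairing. The use of pairs rests on the values and not on the labels. Libraries of unequal number also reached 0.38 (METTL3 2 with vector 3) and 0.13 (METTL3 3 with vector 2), so the rule does not resolve numbers 2 and 3 as pairs.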

Additional observations from a re-analysis of the deposited data

Results flagged for a closer look

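The METTL3 effect in replicate 1 was called different from that in replicates 2 and 3 for 3 of 10 members of the BCL2 family by edgeR's interaction test, beside 30.2% of all genes tested. Number 1 holds 1 library of each group, so the test compares these libraries. The log2 difference of effects was −0.56 for BID (SE 0.102, adjusted p = 0.00109, edgeR), −0.73 for BIK (SE 0.134, adjusted p = 0.00124, edgeR) and 0.46 for BCL2L11 (SE 0.106, adjusted p = 0.00552, edgeR). It was −0.36 for METTL3 itself (SE 0.094, adjusted p = 0.0103, edgeR). BID and BIK were below the vector control in number 1 and above it in numbers 2 and 3, whereas BCL2L11 was above it in each.

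The same test passed for 26 of the 64 other pathway genes (40.6%), and the 13 of them named in the text follow. The log2 difference of effects was higher in replicate 1 for BMF at 0.79 (adjusted p = 0.00553, edgeR), TNF at 1.18 (adjusted p = 0.0159, edgeR), TP63 at 1.82 (adjusted p = 0.0141, edgeR), TNFRSF10B at 0.57 (adjusted p = 0.000381, edgeR), TNFRSF1A at 0.30 (adjusted p = 0.0178, edgeR), DDIT3 at 0.69 (adjusted p = 0.0215, edgeR), JUN at 1.14 (adjusted p = 1.96e-05, edgeR) and USP9X at 0.59 (adjusted p = 0.00292, edgeR). It was lower for BCL2L12 at −0.46 (adjusted p = 0.0034, edgeR), VDAC2 at −0.35 (adjusted p = 0.00878, edgeR), BIRC3 at −1.03 (adjusted p = 1.31e-05, edgeR), FAS at −0.89 (adjusted p = 0.000315, edgeR) and VDAC3 at −0.88 (adjusted p = 3.07e-05, edgeR).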

How the results depend on the processing

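Over 6 libraries edgeR called 0 genes in the METTL3 comparison, DESeq2 called 283, no filter on low counts gave 560, replicates 2 and 3 alone gave 3362, and leaving out each library gave from 0 to 367, the highest without vector control replicate 1. Of the 10 members 4 were called with replicates 2 and 3 alone and 0 under every other alternative run. Of the other pathway genes 12 were called with replicates 2 and 3, 1 with no filter, and from 0 to 1 with a library left out. With the replicate block 0 genes were called by edgeR (2480 at an unadjusted p under 0.05), and the block changed no call, with BCL2L11 at 0.38 (adjusted p = 0.393, edgeR).

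For number 1 against 2 and 3, DESeq2 and no filter each called 1 member (BID), and leaving out a library gave from 0 to 7. That was 6 without METTL3 replicate 1, where 44.1% of all genes tested were called, and 7 without vector control replicate 1, where 32.5% were. In both, 1 library stands for the number. The interaction called the same 3 members, BID, BIK and BCL2L11, under each alternative that could be fitted, while leaving out a replicate 1 library could not.

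Among the members' log2 values over 6 libraries, 122 of the alternative values kept their side, 14 turned sign and 4 passed the threshold (those of replicates 2 and 3 given in the text). The turned values were all near 0. With BAK1 (main value −0.01) they were 0 with DESeq2 and with RLE size factors, 0.01 with no filter, with at least 10 counts in every library and with counts divided by 2, and from −0.06 to 0.06 with a library left out. BBC3 turned to −0.03 with replicates 2 and 3. With a library left out BBC3 ranged from −0.05 to 0.19, MCL1 from −0.24 to 0.02 and BAX from −0.13 to 0.01. For number 1 against 2 and 3, BCL2L11 ranged from −0.42 to 0.07 with a library left out. In the interaction, BAK1 turned to 0.02 with DESeq2 and upper-quartile factors and to 0.03 with RLE factors, no filter, at least 10 counts and counts divided by 2, and ranged from −0.04 to 0.10 with a library left out. The cause was not tested. Of the members BCL2 had the fewest counts, 77 to 209 per library, and thus the least precise values.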
